A study of Homo sapiens with 12 samples.

Results

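Telomerase and shelterin are described here through 10 genes: TERT, DKC1, GAR1, NHP2 and NOP10, which encode protein parts of the telomerase enzyme, and TERF1, TERF2, TINF2, POT1 and ACD, which encode parts of the shelterin complex. Their members are the probe sets that the array annotation gives to only one of these 10 symbols (older names NOLA1, NOLA2 and NOLA3 for GAR1, NHP2 and NOP10). This rule found 21 probe sets out of 54675 on the array, at least 1 for each of the 10 genes. Of these, 18 carried 1 symbol. The other 3, all the DKC1 probe sets, were annotated jointly to DKC1 and to 2 small RNA genes that lie inside it on chromosome X, SNORA56 and MIR664B. They are called the joint DKC1 probe sets below, because the annotation alone does not say which of the 3 genes a signal came from. The RNA subunit of telomerase was not analysed here.

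Telomerase is a reverse transcriptase that adds repeats to chromosome ends. TERT is its catalytic protein, and dyskerin (DKC1) with GAR1, NHP2 and NOP10 forms the H/ACA particle that binds and stabilises its RNA subunit, as it also does for the small nucleolar RNAs that guide pseudouridylation. Shelterin covers the telomere: TERF1 and TERF2 bind the double-stranded repeat, POT1 binds the single-stranded overhang, ACD (TPP1) ties POT1 to TINF2 and recruits telomerase, and TINF2 bridges the parts. TERT is silent in most adult somatic cells and active in most carcinomas, and its transcript is usually scarce even there.

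The samples were 2 human lung adenocarcinoma cell lines, CL1-5 and CL1-0, grown in a microfluidic chip and either exposed or not exposed to a direct-current electric field of 300 mV/mm, applied for 2 h in medium without serum. CL1-5 is a subline of CL1-0 selected for invasiveness, so a difference between them is one between 2 lines and not between invasive and less invasive tumours. The groups were CL1-5 with field, CL1-5 without field, CL1-0 with field and CL1-0 without field, with 3 arrays each that the labels number as biological replicates. All 12 samples, those without field included, had the chip culture and the 2 h without serum. Total RNA was hybridised to 1-colour Affymetrix arrays, and a value is the signal of a probe set in the submitters' scaled units. In bulk RNA, fewer cells of a kind and less RNA per cell cannot be told apart. Signals of different probe sets have different responses, so levels were compared within a probe set only.

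The arrays labelled replicate 1 in all 4 groups stood apart. The added dap poly-A spike-in RNA had a median signal of 5.97 to 18.1 on these 4 arrays and of 869 to 1212 on the other 8, and the 18S rRNA control probe sets behaved likewise, at 28.8 to 88.0 against 1682 to 2954. Because each group held 1 such array and 2 of the others, the counts of line differences below are also given with presence of the spike-in signal as a block and on the 8 arrays with the spike-in signal. The array of CL1-5 with field replicate 1 also had the highest 3′ to 5′ signal ratio of ACTB, 1.54, against 1.21 to 1.32 on the other 11. Of 5 epithelial genes, the keratins KRT8 and KRT18 were above the array median on all 12 arrays. The keratin KRT19 was above it on 0 of 6 CL1-5 and 2 of 6 CL1-0 arrays. The adhesion gene EPCAM was above it on 0 of 6 CL1-5 and 6 of 6 CL1-0 arrays, and CDH1 on 3 of 6 and 6 of 6. Of 3 lung lineage genes, NKX2-1 and SFTPB were above it on 6 of 6 arrays of each line, and NAPSA on 6 of 6 CL1-5 and 4 of 6 CL1-0 arrays. Of 3 leukocyte genes, PTPRC and CD14 were above it on 0 of 12 arrays and CD3E on 3 of 6 CL1-5 and 3 of 6 CL1-0 arrays, and their summed signal was 89.1 to 168 in CL1-5 and 73.8 to 150.3 in CL1-0. Of 3 endothelial genes, CDH5 and VWF were above it on 0 of 12 and PECAM1 on 6 of 6 arrays of each line. Their summed signal was 201 to 1622 in CL1-5 and 94.6 to 180 in CL1-0, carried by PECAM1. That of 4 fibroblast genes was 330.0 to 588 in CL1-5 and 290.4 to 549.5 in CL1-0. Of these 4, PDGFRA was above the array median on 6 of 6 CL1-5 arrays and 0 of 6 CL1-0 arrays. COL1A1 was above it on 6 of 6 arrays of each line, COL1A2 on 2 of 6 CL1-5 and 0 of 6 CL1-0 arrays, and DCN on 2 of 6 and 5 of 6. The part of these marker differences in the results below was not tested.

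With field, 3 of the 21 probe sets were lower in CL1-5 than in CL1-0 and 0 were higher (limma on log2 signal of all 54613 probe sets other than controls, Benjamini-Hochberg adjusted p under 0.05). They were the 3 joint DKC1 probe sets, with 0 of the 18 members with 1 symbol. This is 14.3% of the members, beside 6.60% of all probe sets called in either direction (3.08% lower and 3.52% higher). That share counts the gene DKC1 3 times. With each of the 10 genes taken by its brightest probe set on average, only DKC1 passed with field, beside 9.96% of 19775 genes with a probe set of 1 symbol. The comparison without field used other arrays, but the fit shared its estimate of the spread over all 12 arrays. Without field, 4 were lower in CL1-5 and 0 were higher. They were 1 TERT probe set, 1 POT1 probe set and 2 of the joint DKC1 probe sets, which makes 2 of 18 and 2 of 3. That is 19.0% of the members, beside 5.93% of all probe sets called in either direction (2.61% lower and 3.31% higher). By brightest probe set, only TERT and DKC1 passed without field, beside 9.12% of genes. The median difference of the 21 members was -0.31 on the log2 scale with field, where that of all probe sets was -0.064, and -0.23 without field, where that of all probe sets was 0.016. The 3 CL1-5 and 3 CL1-0 arrays did not overlap for 8 members with field (1 higher and 7 lower in CL1-5), beside 22.6% of all probe sets, and for 11 without field (2 higher and 9 lower), beside 21.5%. These counts, too, take genes with several probe sets more than once. In the fit without a block, all calls of members depended on letting the variance prior follow the signal level: with a prior common to all levels, limma called 0 of 21 in each comparison (7 of 21 in each at an unadjusted p under 0.05; lowest adjusted p 0.0571 with field and 0.0506 without field), beside 4.51% of all probe sets with field and 4.31% without field.

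**Figure D1:**
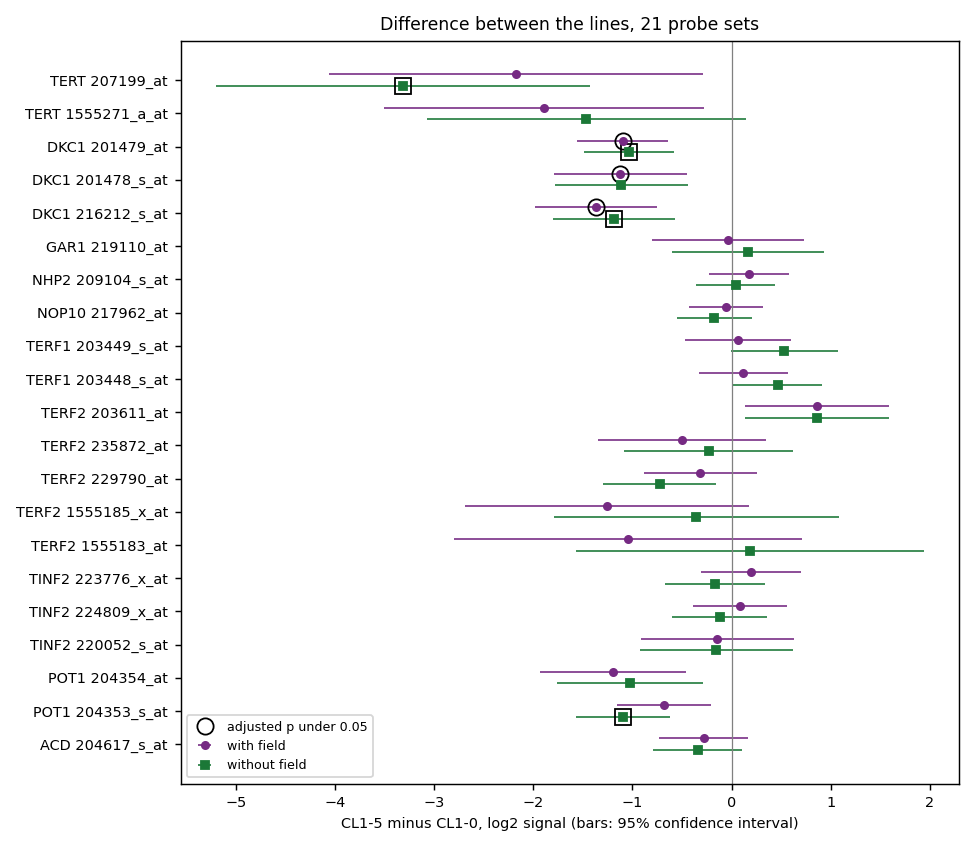
Difference between the lines (CL1-5 minus CL1-0, log2 signal) for each of the 21 probe sets, with field (circles) and without field (squares), with 95% confidence intervals from limma; black rings mark an adjusted p under 0.05. Both TERT, all 3 joint DKC1 and both POT1 probe sets lie left of 0, and TERF2 203611_at lies right of it, at 0.86 in both comparisons.

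TERT, the catalytic subunit, was lower in CL1-5. Its leading probe set, 207199_at, gave signals of 144, 98.2 and 45.6 in CL1-5 with field and of 137, 9.59 and 43.8 in CL1-5 without field. In CL1-0 it gave 911, 255 and 254 with field, and 829, 218 and 311 without field. Every CL1-5 array was below every CL1-0 array, and within each group the array labelled replicate 1 was the highest. With field the difference was -2.17 ± 0.87 log2 (SE, n = 3 each, limma adjusted p = 0.199), which did not pass the test. Without field it was -3.31 ± 0.87 (limma adjusted p = 0.0414), which is 9.93-fold. The CL1-5 signals lay near or under the array medians of 60.7 to 72.4: 2 of 3 CL1-5 arrays with field and 1 of 3 without field were above theirs, against 3 of 3 CL1-0 arrays in each condition. When values under the array median were raised to it, the difference without field was -2.20, or 4.59-fold, with a limma adjusted p of 0.0551. The call without field was also lost on leaving out any one of 8 arrays, which were CL1-0 without field replicates 1 (limma adjusted p = 0.150), 2 (0.0601) and 3 (0.0986), CL1-5 without field replicates 2 (0.149; difference -2.31) and 3 (0.102), CL1-0 with field replicates 2 (0.0576) and 3 (0.0569), and CL1-5 with field replicate 2 (0.0583).

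The other TERT probe set, 1555271_a_at, lay on the same side. It gave 91.4, 57.6 and 23.0 in CL1-5 with field and 114, 51.4 and 32.7 in CL1-5 without field, against 381, 96.4 and 168 in CL1-0 with field and 387, 80.0 and 130 in CL1-0 without field. The lines did not overlap with field, and overlapped without it through the high replicate 1 array of CL1-5. The differences were -1.89 ± 0.74 with field (limma adjusted p = 0.187) and -1.46 ± 0.74 without field (limma adjusted p = 0.373; SE, n = 3 each). Across the 12 arrays, 207199_at ran closest to AP3D1 (Pearson r = 0.955), TAFAZZIN (0.953) and WDR45B (0.950), of 12468 genes compared. These arrays share lines and the spike-in batch, and with the line means removed the same correlations were 0.887, 0.924 and 0.906. The batch was not removed from them, and the genes were picked for the highest r on these same arrays.

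**Figure D2:**
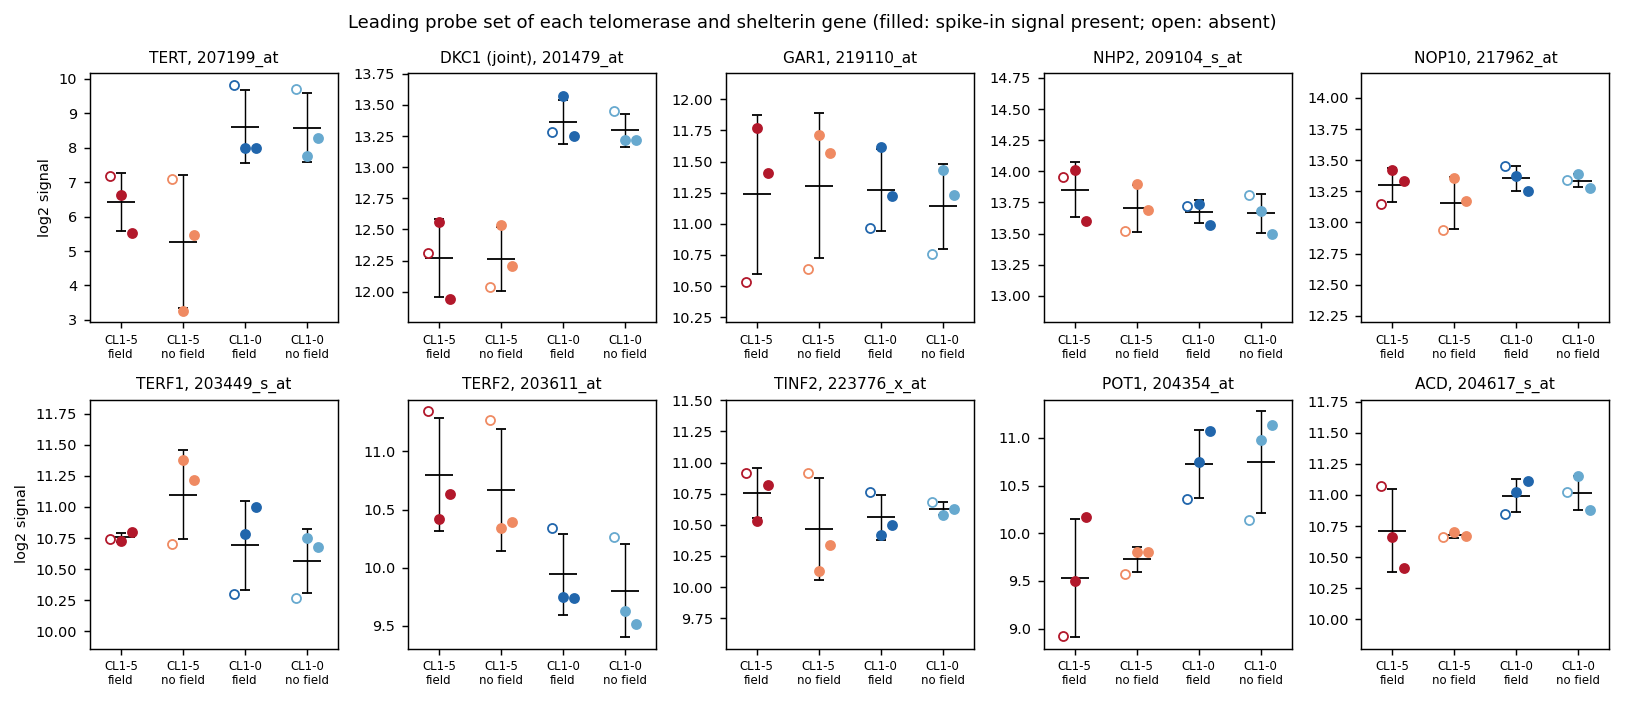
Log2 signal of the leading probe set of each of the 10 genes on the 12 arrays, by group (CL1-5 with field, CL1-5 without field, CL1-0 with field, CL1-0 without field); points are arrays, open where the spike-in signal was absent, and black bars are group means with SD (n = 3). TERT, the joint DKC1 probe set and POT1 are lower in CL1-5, TERF2 lies higher there, and GAR1, NHP2 and NOP10 overlap between the lines.

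The joint DKC1 probe sets, for dyskerin, the pseudouridine synthase of the H/ACA particle, were lower in CL1-5 by about the same amount with and without field. The leading one, 201479_at, is listed in the annotation with a reference transcript of DKC1. Its signals were 5089, 6042 and 3924 in CL1-5 with field and 4209, 5958 and 4722 in CL1-5 without field. In CL1-0 they were 9958, 12187 and 9761 with field, and 11184, 9533 and 9565 without field. The 6 CL1-5 arrays lay below the 6 CL1-0 arrays with no overlap. The difference was -1.10 ± 0.21 with field (2.14-fold, limma adjusted p = 0.00647) and -1.04 ± 0.21 without field (2.05-fold, limma adjusted p = 0.00967; SE, n = 3 each). Both calls stood on leaving out each of the 12 arrays in turn.

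Probe set 216212_s_at differed by -1.36 ± 0.28 with field (limma adjusted p = 0.0108) and by -1.19 ± 0.28 without field (limma adjusted p = 0.0243). Its signals were 876 to 1513 on the 6 CL1-5 arrays and 2338 to 4033 on the 6 CL1-0 arrays, without overlap. The third, 201478_s_at, differed by -1.12 ± 0.31 with field (limma adjusted p = 0.0477) and by -1.11 ± 0.31 without field (limma adjusted p = 0.0537), with signals of 2463 to 4586 in CL1-5 and 5669 to 12156 in CL1-0. These 2 probe sets sat near the threshold. For 216212_s_at, the call was lost, with an adjusted p above 0.05, without CL1-0 with field replicate 2 (0.0506) or CL1-5 with field replicate 3 (0.0538) in the comparison with field, and without CL1-0 replicate 1 (0.0957) or 2 (0.0517) or CL1-5 replicate 1 (0.0831) or 3 (0.0742) in the comparison without field. On the 8 arrays with the spike-in signal its adjusted p without field was 0.0547. For 201478_s_at the call with field stood on leaving out CL1-0 without field replicate 1 or CL1-5 with field replicate 1, and leaving out any one of the other 10 arrays gave 0.0532 to 0.183. It was also lost with quantile normalization (0.0557) and with only the 2 groups compared in the fit (0.0679). Of the 12 fits that each left out 1 array, that without CL1-5 with field replicate 1 (0.0381) and that without replicate 3 (0.0469) called it in the comparison without field. There it was also called with arrays centred on their median (0.0310) and with either filter on low values (0.0380 and 0.0325). The genes that ran closest to 201479_at over the 12 arrays were MAGEA1 (r = 0.990), R3HCC1 (0.979) and LYAR (0.977). Their r was 0.911, 0.810 and 0.770 once line means, but not the spike-in batch, were removed.

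The other proteins of the H/ACA particle showed no difference that passed the test. GAR1 219110_at gave 1482 to 3482 on the CL1-5 arrays and 1732 to 3148 on the CL1-0 arrays, and in every group its lowest value was the replicate 1 array. Its line difference was -0.04 ± 0.36 with field (95% confidence interval -0.80 to 0.73) and 0.17 ± 0.36 without field (-0.60 to 0.94). NHP2 209104_s_at gave 11742 to 16445 in CL1-5 and 11553 to 14342 in CL1-0, a difference of 0.18 ± 0.19 with field (-0.23 to 0.58) and 0.04 ± 0.19 without field (-0.36 to 0.44). NOP10 217962_at gave 7870 to 10976 in CL1-5 and 9769 to 11180 in CL1-0, a difference of -0.06 ± 0.17 with field (-0.43 to 0.32) and -0.18 ± 0.17 without field (-0.55 to 0.20). The intervals of all 3 genes leave out a fall as large as that of DKC1 201479_at, but a test of one probe set's difference against another's was not run. The 3 proteins of the related box C/D particle on the array, FBL, NOP58 and SNU13, also had 0 of 3 past the limma test in each comparison, with differences between -0.19 and 0.30, and 0 of 3 with the spike-in block or on the 8 arrays with the spike-in signal.

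POT1, the shelterin protein that binds the single-stranded overhang, was lower in CL1-5 on its probe set 204353_s_at. Its leading probe set, 204354_at, passed the test in neither comparison and is described after it. Probe set 204353_s_at gave 839, 638 and 886 in CL1-5 with field and 770, 604 and 721 in CL1-5 without field. In CL1-0 it gave 1290, 1075 and 1402 with field, and 1349, 1568 and 1542 without field. All 6 CL1-5 arrays were below all 6 CL1-0 arrays. With field the difference was -0.68 ± 0.22 (1.60-fold, limma adjusted p = 0.0964), which did not pass. Without field it was -1.09 ± 0.22 (2.13-fold, limma adjusted p = 0.00854), and this call stood on leaving out each of the 12 arrays in turn.

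The leading POT1 probe set, 204354_at, gave 487, 723 and 1153 in CL1-5 with field and 763, 893 and 894 in CL1-5 without field, against 1314, 1723 and 2148 in CL1-0 with field and 1130, 2025 and 2246 in CL1-0 without field. The lines did not overlap within either condition. The differences were -1.19 ± 0.34 with field (2.29-fold, limma adjusted p = 0.0560) and -1.03 ± 0.34 without field (2.04-fold, limma adjusted p = 0.114). Leaving out CL1-0 without field replicate 1 brought it under the threshold with field (adjusted p = 0.0344) and without field (0.0439), as did leaving out CL1-5 with field replicate 3 in the comparison with field (0.0264). With field it was also called with either filter on low values (0.0416 and 0.0338) and with one probe set per gene (0.0291), and 204353_s_at was called with the stricter filter (0.0408). Whether the line difference changed with the field was tested as an interaction, and 0 of 21 members passed.

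TERF2, which binds double-stranded repeats and holds the telomere loop closed, had 5 probe sets that disagreed in direction. The leading one, 203611_at, gave 2618, 1368 and 1580 in CL1-5 with field and 2472, 1293 and 1340 in CL1-5 without field, against 1294, 859 and 853 in CL1-0 with field and 1227, 791 and 732 in CL1-0 without field. The lines did not overlap within a condition, and in each group the replicate 1 array was far above the others. The difference was 0.86 ± 0.34 with field (1.81-fold, limma adjusted p = 0.184) and 0.86 ± 0.34 without field (1.82-fold, limma adjusted p = 0.196). Probe set 229790_at lay the other way, at -0.31 ± 0.26 with field (limma adjusted p = 0.626) and -0.72 ± 0.26 without field (limma adjusted p = 0.158). Its signals were 260 to 426 in CL1-5 and 405 to 531 in CL1-0. The remaining 3, 235872_at, 1555185_x_at and 1555183_at, differed by -1.25 to 0.18 over both comparisons, none past the test. On 1555185_x_at and 1555183_at, CL1-5 with field replicate 1 gave 33.9 and 19.2, while the other 11 arrays gave 243 to 435 and 59.7 to 256.

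TERF1, the other double-strand binder, which limits telomere lengthening, differed by 0.06 ± 0.25 with field and 0.53 ± 0.25 without field on 203449_s_at, and by 0.12 ± 0.21 and 0.47 ± 0.21 on 203448_s_at (limma adjusted p of 0.283 to 0.943). Signals of 203449_s_at were 1663 to 2671 in CL1-5 and 1237 to 2041 in CL1-0. On 203448_s_at, CL1-5 without field gave 1725, 1690 and 1967 and CL1-0 without field gave 1366, 1479 and 1080, with no overlap. TINF2 had 3 probe sets with differences between -0.17 and 0.20 in the 2 comparisons. Its leading probe set, 223776_x_at, gave 1124 to 1940 in CL1-5 and 1373 to 1731 in CL1-0. ACD 204617_s_at gave 1365 to 2146 in CL1-5 and 1845 to 2275 in CL1-0, and differed by -0.28 ± 0.21 with field (limma adjusted p = 0.562) and -0.34 ± 0.21 without field (limma adjusted p = 0.492). TERF2IP (RAP1), the shelterin protein bound to TERF2, differed by -0.05 ± 0.18 with field and -0.13 ± 0.18 without field (limma adjusted p of 0.941 and 0.843).

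With this spike-in batch blocked, more members passed, as did more probe sets of the whole array. With field, 8 of 21 members passed (1 higher and 7 lower in CL1-5), beside 16.7% of all probe sets. They were TERF2 203611_at on the higher side (limma adjusted p = 0.000424), and on the lower side both TERT probe sets (0.00612 and 0.00591), both POT1 probe sets (0.000527 for 204354_at and 0.0132 for 204353_s_at) and the 3 joint DKC1 probe sets. That count takes some genes more than once. By brightest probe set, TERT, DKC1, TERF2 and POT1 passed of the 10 genes, beside 23.4% of 19775 genes. In that comparison the deviations of same-numbered arrays correlated at 0.290 for number 1, against at most -0.170 with another number. For numbers 2 and 3 the margin was small (0.135 and 0.114, against 0.104). With the replicate number as the block the count was 8 as well (1 higher and 7 lower), beside 16.8% of all probe sets. Without field, the spike-in block called 10 of 21 (2 higher and 8 lower), beside 15.1% of all probe sets. The higher ones were TERF2 203611_at (0.00043) and TERF1 203449_s_at (0.0269). The lower ones were both TERT probe sets (0.00024 and 0.0312), both POT1 probe sets (0.00195 for 204354_at and 0.00041 for 204353_s_at), the 3 joint DKC1 probe sets and TERF2 229790_at (0.0326). By brightest probe set, TERT, DKC1, TERF1, TERF2 and POT1 passed without field, beside 21.5% of genes.

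On the 8 arrays with the spike-in signal alone, 7 of 21 members passed with field (1 higher and 6 lower), beside 13.1% of all probe sets, and 7 without field (2 higher and 5 lower), beside 12.3%. There, TERT 207199_at differed by -1.93 with field (limma adjusted p = 0.0902, not past the test) and by -3.67 without field (0.00425). POT1 204354_at differed by -1.07 with field (0.00726) and -1.25 without field (0.00307). DKC1 201479_at differed by -1.16 with field (0.00303) and -0.85 without field (0.0186). TERF2 203611_at differed by 0.78 with field (0.00729) and 0.79 without field (0.00709), so it was called in both comparisons once the 4 replicate 1 arrays were blocked or left out together. ACD was also called with field (-0.53, 0.0468). These counts, too, take some genes more than once. By brightest probe set, DKC1, TERF2, POT1 and ACD passed with field, beside 19.0% of genes. Without field, TERT, DKC1, TERF1, TERF2 and POT1 passed, beside 18.1%. The replicate 1 arrays hold 1 array per group, and on them alone the differences have no test.

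**Figure D3:**
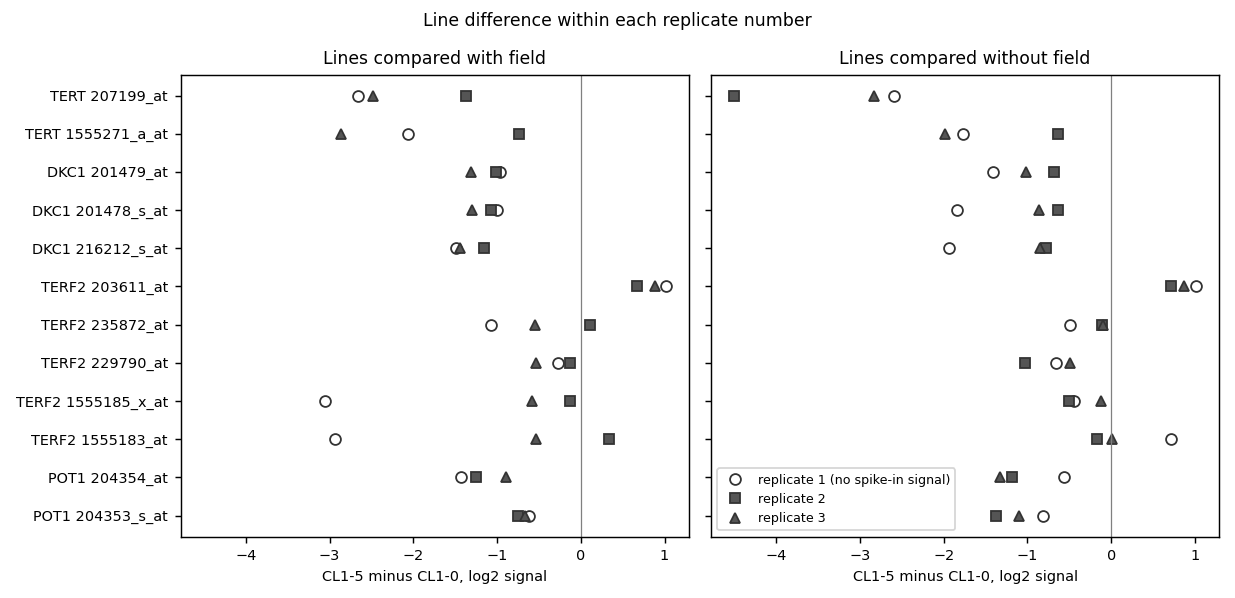
Line difference (CL1-5 minus CL1-0, log2 signal) within each replicate number, for the TERT, DKC1, TERF2 and POT1 probe sets, with field (left) and without field (right); open circles are the arrays without spike-in signal. All points of TERT, DKC1 and POT1 lie left of 0 and those of TERF2 203611_at right of it, and the far left circles with field on TERF2 1555185_x_at and 1555183_at come from CL1-5 with field replicate 1.

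Sequences before the transcription start are shown for DKC1 and POT1, since all their probe sets lay lower in CL1-5 within each condition, to see what the 2 genes share there. The letters are from RefSeq (GRCh38.p14) and run 5′ to 3′ on the strand of the gene over the 250 bases before the start. DKC1 is at chrX:154762614-154762863 on the plus strand, and POT1 at chr7:124929826-124930075 on the minus strand. Capitals mark the GC box GGGCGG, the letters bound by SP1-type factors, or its reverse complement CCGCCC.
DKC1: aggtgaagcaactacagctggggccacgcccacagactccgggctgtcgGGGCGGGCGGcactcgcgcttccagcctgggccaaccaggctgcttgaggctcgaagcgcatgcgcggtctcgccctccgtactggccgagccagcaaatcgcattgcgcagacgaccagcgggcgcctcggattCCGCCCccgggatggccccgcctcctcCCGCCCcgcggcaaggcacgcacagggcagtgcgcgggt
POT1: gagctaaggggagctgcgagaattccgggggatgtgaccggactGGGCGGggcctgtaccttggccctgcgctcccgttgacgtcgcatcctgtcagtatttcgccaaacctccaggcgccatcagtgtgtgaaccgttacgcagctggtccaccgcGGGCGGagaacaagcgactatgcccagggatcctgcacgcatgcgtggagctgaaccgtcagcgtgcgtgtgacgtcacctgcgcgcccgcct
The DKC1 window held 4 GC boxes, 2 of which overlap, and the POT1 window held 2. Windows of 250 bases before to 50 after the start were at hand for 8 of the 10 genes, GAR1 and TINF2 with more than one. All 8 held a GC box in at least one window, and of 35116 single windows searched on both strands 45.0% held it. Here and for the next motifs, genes are counted over any of their windows and the shares are of single windows, so the 2 are not like measures. The E-box CACGTG, the letters bound by MYC with MAX, was found for 3 of 8 genes (TERT, GAR1 and NOP10) and in 7.3% of all windows. The ETS-type letters CCGGAAGT were found for 3 of 8 (GAR1, NOP10 and TINF2) and in 4.1% of all windows. A match is a description of letters only.

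Of 39 further telomere and telomerase genes, 36 had a probe set of 1 symbol, and each was described by its brightest. With field, STN1 was higher and RAD50 and BLM were lower in CL1-5, 3 of 36, beside 9.96% of 19775 genes. Without field, STN1 was higher and 0 were lower, 1 of 36, beside 9.12%. STN1, a part of the CST complex that ends telomere extension and fills in the opposite strand, differed by 2.16 ± 0.31 with field (limma adjusted p = 0.000854) and 1.91 ± 0.31 without field (0.00214). Its partner CTC1 differed by -0.50 ± 0.43 with field (0.634) and -1.10 ± 0.43 without field (0.192); the difference without field was called with the spike-in block (0.0116) and on the 8 arrays with the spike-in signal (0.0367). RAD50, a double-strand break and telomere factor, differed by -1.13 ± 0.27 with field (0.0219) and -0.95 ± 0.27 without field (0.0563). BLM, a RecQ helicase active at telomeres, differed by -1.03 ± 0.26 with field (0.0324) and -0.88 ± 0.26 without field (0.0723). Among the assembly factors of telomerase, NAF1 differed by -0.93 ± 0.51 with field (0.391) and -0.41 ± 0.51 without field (0.821), and the difference with field was called with the replicate block (0.0167) and the spike-in block (0.0189), but not on the 8 arrays with the spike-in signal (0.0922). SHQ1, RUVBL1, RUVBL2 and WRAP53 lay between -0.39 and 0.44. The largest difference of the 36 was that of SMG6, a telomerase-associated protein that also cleaves transcripts in nonsense-mediated decay. It was 3.27 ± 1.10 with field (limma adjusted p = 0.112) and 2.85 ± 1.10 without field (0.191), and it was called in both with the spike-in block (0.000437 and 0.00144) and on the 8 arrays with the spike-in signal (0.00371 and 0.0108). With the spike-in block, 10 of the 36 were called with field (5 higher, 5 lower), beside 23.4% of all genes, and 11 without field (6 higher, 5 lower), beside 21.5%. The replicate block gave the same counts. On the 8 arrays with the spike-in signal, 8 were called with field (4 higher, 4 lower), beside 19.0% of all genes, and 8 without field (5 higher, 3 lower), beside 18.1%.

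Of 18 transcription factors with a described role at the TERT gene, 17 had such a probe set, and the same 4 were higher in CL1-5 in each comparison with 0 lower, beside 9.96% of all genes called with field and 9.12% without field. ETS1 differed by 2.91 ± 0.47 with field (limma adjusted p = 0.00183) and 3.27 ± 0.47 without field (0.000728). ETS2 differed by 1.59 ± 0.40 with field (0.0294) and 1.68 ± 0.40 without field (0.0225), and HIF1A by 1.39 ± 0.24 (0.00307) and 1.49 ± 0.24 (0.00187). MAX, the partner of MYC, differed by 0.68 ± 0.17 with field (0.0297) and 0.66 ± 0.17 without field (0.0356). MYC itself differed by 0.87 ± 0.66 with field (0.578) and 0.64 ± 0.66 without field (0.763). SP1 differed by -0.59 ± 0.25 with field (0.244) and -0.68 ± 0.25 without field (0.176). With the spike-in block, 6 of the 17 were called with field (5 higher, 1 lower), beside 23.4% of all genes, and 8 without field (6 higher, 2 lower), beside 21.5%. These calls included MYC on the higher side (0.00634 with field and 0.0434 without field) and SP1 on the lower side (0.0274 and 0.0131). The replicate block gave the same counts. On the 8 arrays with the spike-in signal, 3 were called with field (3 higher, 0 lower), beside 19.0%, and 4 without field (3 higher, 1 lower), beside 18.1%; ETS2 was not among them (0.0844 with field and 0.0590 without field). The median of the 17 was 0.21 in each comparison, beside -0.073 with field and -0.0049 without field over all genes.

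**Figure D4:**
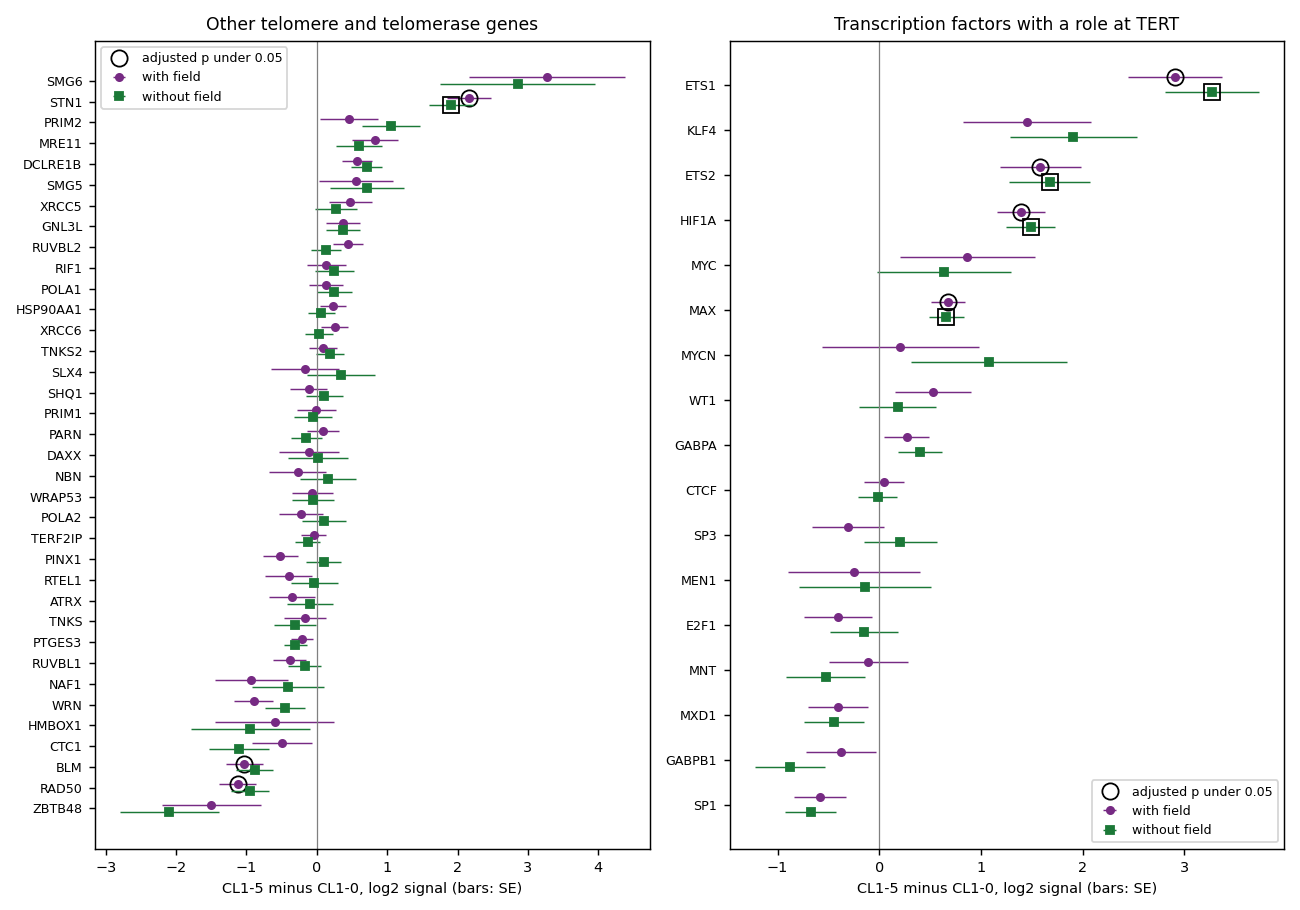
Line difference (CL1-5 minus CL1-0, log2 signal, bars SE) for 36 other telomere genes (left) and 17 transcription factors with a role at TERT (right), with field (circles) and without field (squares); black rings mark a limma adjusted p under 0.05. SMG6 lies farthest right among the telomere genes, at 3.27 and 2.85 with wide bars and not past the test, followed by STN1 at 2.16 and 1.91, which is; ETS1 lies at 2.91 and 3.27.

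No response of these genes to the field was detectable. With field against without field, 0 of 21 members passed the limma test in CL1-5, 0 in CL1-0, 0 averaged over the lines and 0 in the interaction that asks whether the lines responded differently, beside 0% of all probe sets in each. At an unadjusted p under 0.05 there were likewise 0 of 21 in each, beside 2.89%, 2.28%, 2.23% and 2.50% of all probe sets. In CL1-5 the differences ran from -0.94 to 1.16 log2, and in CL1-0 from -0.25 to 0.29. The 95% confidence interval lay within 1 log2 unit (2-fold) of 0 for 16 of 21 members in CL1-5 and 17 of 21 in CL1-0, so for these a change of 2-fold or more was outside the interval. For the interaction this held for 7 of 21. The widest intervals were those of TERT 207199_at, at -0.73 to 3.05 in CL1-5 and -1.86 to 1.91 in CL1-0.

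In the fit without a block, the smallest unadjusted p in CL1-5 was that of TERF1 203448_s_at, 0.140 in limma. Its signals were 1315, 1595 and 1387 with field against 1725, 1690 and 1967 without field. It was the only member whose groups did not overlap in CL1-5 (1 lower), beside 6.96% of all probe sets, and in CL1-0 there were 0, beside 5.84%. In CL1-0 the smallest was that of POT1 204353_s_at, 0.278, with a difference of -0.25 ± 0.22. The 3 joint DKC1 probe sets differed by -0.07 to 0.01 in CL1-5 and 0.01 to 0.11 in CL1-0 (SE 0.21 to 0.31). TERT 207199_at differed by 1.16 ± 0.87 in CL1-5, where the value without field rested on 1 array at 9.59, and by 0.02 ± 0.87 in CL1-0. None of the 36 telomere genes or 17 factors passed in any of the 4 field comparisons. These comparisons share arrays with the line comparisons above.

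**Figure D5:**
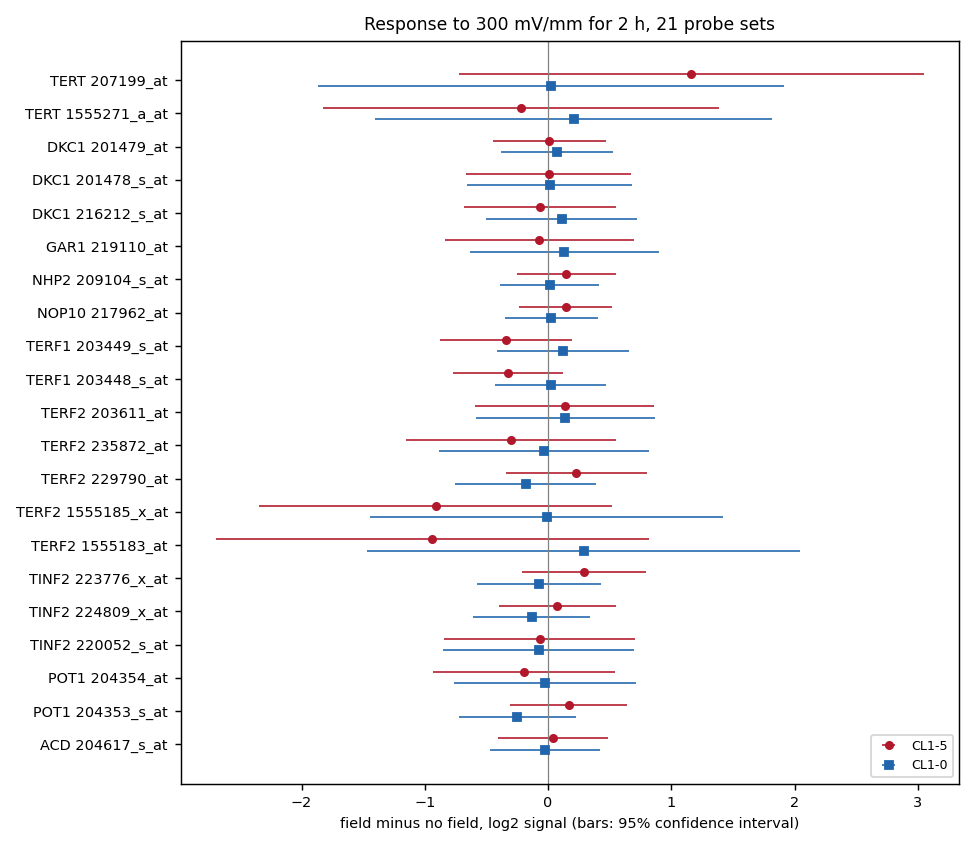
Difference between cells with and without field (field minus no field, log2 signal) for each of the 21 probe sets, in CL1-5 (circles) and CL1-0 (squares), with 95% confidence intervals from limma. All intervals cover 0, and the widest are those of TERT and of TERF2 1555185_x_at and 1555183_at.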

How the data were processed

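The 12 arrays came as 1 table of probe set intensities. The authors deposited these intensity values as MAS5 signals, per the submitters' processing notes, on a linear scale; each array had been scaled to a trimmed mean of about 500, as tested on the values. Signals under 1 were set to 1 and log2 was taken. The log2 signals of all 54613 probe sets other than 62 controls were fitted with limma 3.58.1 (4 group means, variance prior following the signal level) in R 4.3.3, with no filter on low values, so that all 21 members were tested; 6 comparisons were made, each adjusted with Benjamini-Hochberg over all probe sets at 0.05. Genes were named from the platform annotation (41097 probe sets with 1 symbol, 1801 with several, 11777 with none). Every member is described, its gene's brightest probe set on average (the leading one) first, except for POT1. There 204353_s_at, which passed without field, was put before the leading 204354_at. Of the other lists, those past the test were named, with a few related genes added after their values were seen. The genes most like TERT and DKC1 are those with the highest Pearson r over 12 arrays. The members, lists and tests were chosen with earlier results of these data known. The fit was tested on simulated data with independent errors and no replicate 1 batch, so that test does not cover the batch seen in these arrays.

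Samples with the same replicate number were checked for pairing through the correlation of their deviations from the group means. It was over 0.1 for every number between the lines with field (0.290, 0.135 and 0.114) and between field and no field in CL1-0 (0.343, 0.150 and 0.134), but not between the lines without field (0.0908 for number 3) or in CL1-5 (0.0998 for number 3). For numbers 2 and 3, the highest correlation with another number was close, at 0.104 between the lines with field and 0.122 in CL1-0. Any pairing thus comes from the data and not from the labels. Precision is limited by 3 arrays per group. Alternatives covered scaling, low values, filters, the variance prior, the replicate block, the spike-in batch and leaving out each array.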

Additional observations from a re-analysis of the deposited data

How the results depend on the processing

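The count of members past the test moved most with the block and the variance prior. With field it was 3, and became 8 with the replicate block, 8 with the spike-in block, 7 on the arrays with the spike-in signal, 5 with the stricter filter and 0 with eBayes without trend; leaving out each array gave 1 to 4 (1 without CL1-0 with field replicate 2). Without field it was 4, and became 10 with the replicate block, 10 with the spike-in block, 7 on the arrays with the spike-in signal, 2 with one probe set per gene and 0 without trend; leaving out each array gave 2 to 5 (2 without CL1-5 without field replicate 3 and 2 without CL1-0 without field replicate 2). Over the whole array, 3606 calls with field became 9198 with the replicate block, 9106 with the spike-in block and 7131 on the arrays with the spike-in signal, and 2179 to 3906 on leaving out each array (2179 without CL1-0 with field replicate 3, 2291 without replicate 2). The 3237 calls without field became 8301, 8231 and 6691, and 2112 to 3762 (2112 without CL1-0 without field replicate 3). Between the lines without field the labels of the arrays share only a number, and the replicate 1 arrays of both lines also lacked the spike-in signal. Arrays of replicate 1 (0.291 against -0.152 with another number) and 2 (0.145 against 0.0971) correlated best with their own number. Those of replicate 3 did not (0.0908 against 0.0971 with another number). One probe set per gene leaves fewer members to count; for the other settings the cause was not tested. In the field comparisons all alternatives gave 0 members, and 0 or 1 probe set of the array (1 in CL1-5 with the spike-in block and on the arrays with the spike-in signal, 1 in CL1-0 with the spike-in block and the replicate block; leaving out each array gave 0 to 1 in CL1-5 and 0 elsewhere).

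Over the single members and alternatives, 973 values kept direction and side of the threshold, 36 lost the call, 42 gained it and 27 turned sign, all 27 for members that were not called. These values cover all 21 members in the 2 line comparisons, but only TERT 207199_at in the field comparisons. With arrays centred on their median, NHP2 without field turned to -0.040 and the field difference of TERT 207199_at in CL1-0 to -0.037. On the arrays with the spike-in signal, TERF2 1555183_at without field turned to -0.079, GAR1 with field to 0.17, NOP10 with field to 0.064, TERF1 203449_s_at with field to -0.13, TINF2 220052_s_at with field to 0.38, and the field difference of TERT 207199_at in CL1-0 to -0.033. Leaving out each array gave, without field, -0.033 to 0.50 for GAR1, -0.059 to 0.13 for NHP2, -0.43 to 0.073 for TERF2 235872_at and -0.46 to 0.59 for TERF2 1555183_at. With field it gave -0.30 to 0.32 for GAR1, -0.12 to 0.018 for NOP10, -0.13 to 0.21 for TERF1 203449_s_at, -1.82 to 0.038 for TERF2 1555183_at, -0.025 to 0.21 for TINF2 224809_x_at and -0.46 to 0.18 for TINF2 220052_s_at, and -0.59 to 0.58 for the field difference of TERT 207199_at in CL1-0. The cause was not tested.

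The labels give the arrays of a group replicate numbers but no culture dates, so p-values measure the spread between these arrays, which includes that between the replicate 1 array and the other 2. Detection calls were not used here, so whether TERT was above background in CL1-5 is not known beyond its place relative to the array median.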
